A study of Canis lupus familiaris with 51 samples.

Results

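KIT, the receptor tyrosine kinase that mast cells need to grow and survive, and its ligand KITLG (stem cell factor) were followed across 51 canine cutaneous mast cell tumors (MCTs). Every probe that the array design names KIT or KITLG was taken. These are 2 of the 10676 genes named on the array and 4 of its 43603 probes, 3 for KIT and 1 for KITLG. The probes were taken by gene name, and the 2 genes were chosen with earlier results of these data known.

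KITLG is made by stromal cells, endothelium and keratinocytes of the skin, as a membrane-bound form and as a form shed by proteases. Its binding pairs 2 KIT molecules, which then phosphorylate each other and start signalling through PI3 kinase, SRC family kinases, RAS and STAT proteins. KIT is best known in canine MCTs for activating mutations of its juxtamembrane region and as the target of tyrosine kinase inhibitors. The arrays measured transcript level alone, so neither mutation nor phosphorylation of KIT can be read from the values below.

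Each tumor came from a different dog, was taken from the centre of the mass at surgery, and is represented by 1 single-colour Agilent canine array. Repeat hybridizations that the study made of some samples were not analysed here. The 18 reference samples had been graded with full agreement among pathologists. Of these, 13 were differentiated (low grade by Kiupel, G1 or G2 by Patnaik, and a mitotic index of at most 5). The other 5 were undifferentiated (high grade by Kiupel, G2 or G3 by Patnaik, and a mitotic index above 5). The other 33 MCTs, the unknown samples, were assigned by the study from the levels of a small set of other transcripts, many of them of the cell cycle, 7 as undifferentiated and 26 as differentiated, so their class is a prediction and not a grade. The tumors were spontaneous, from dogs of many breeds, with 14 Crossbred dogs, 9 Boxers and 9 Labrador Retrievers as the largest breed groups. The dogs were 19 males and 30 females, with 2 of unstated sex, aged 3 to 14 years where the age was given, and no normal skin or isolated mast cells were among the 51 samples.

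The 60-base probes are shown because they define which part of each transcript was read. Positions are those given by the array files, whose genome build is not named in the sources used here. The first KIT probe, called KIT-C here, lies at the carboxy-terminal end of the coding sequence (chr13:50120926-50122041). The probe called KIT-K lies in the kinase domain (chr13:50120229-50120401). The probe called KIT-E lies in the extracellular part (chr13:50093321-50107395). The KITLG probe (chr15:32613497-32614168, given in descending order) covers the end of the transmembrane segment and the start of the cytoplasmic tail, which the membrane-bound and the shed form both have as precursors. All 4 spans exceed the probe length, so each probe lies across at least 1 exon junction of the spliced transcript. The letters are as the array files give them, 5′ to 3′, with no part marked by capitals.
KIT-C: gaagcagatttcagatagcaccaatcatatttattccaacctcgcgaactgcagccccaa
KIT-K: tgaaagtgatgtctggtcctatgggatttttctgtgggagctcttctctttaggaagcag
KIT-E: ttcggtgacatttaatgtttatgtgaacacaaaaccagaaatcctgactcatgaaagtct
KITLG: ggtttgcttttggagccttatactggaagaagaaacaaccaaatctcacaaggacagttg

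KIT-C, KIT-K and the KITLG probe were well above background on all 51 arrays and KIT-E on 50, the exception being tumor T77, and no spot of any of the 4 was saturated. KIT was thus detected by at least 2 probes in every tumor. Levels are log2 of the quantile-normalized signal, in which 1 unit is a 2-fold difference, and the level of a probe is compared only with that of the same probe in other tumors. Spots that the scanner software flagged as outliers were left out, which removed KIT-C in tumor LM0, KIT-E in T81 and KIT-K in 11 tumors. The 3 KIT probes ordered the tumors alike. The Pearson correlation over tumors was 0.99 between KIT-C and KIT-K (n = 39) and 0.98 between KIT-C and KIT-E (n = 49), with a Spearman rho of 0.99 and 0.95. The difference between KIT-C and KIT-K varied with an SD of 0.12 over tumors, and that between KIT-C and KIT-E with an SD of 0.25, against an SD of 1.04 of KIT-C itself. KIT-C, the brightest, stands for the gene below.

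KIT did not differ in mean level between the classes of the reference samples, and in the predicted samples it was lower in undifferentiated MCTs by a difference that did not pass the correction over all probes. In the reference undifferentiated MCTs, KIT-C was 11.00 in T57, 13.25 in T73, 13.68 in T9 and 15.04 in T90. In the 13 reference differentiated MCTs it was 12.50 at the lowest, 13.23 at the median and 14.02 at the highest. T57 lay below every reference differentiated tumor and T90 above every one. The difference of the means, 13.24 ± 1.68 against 13.21 ± 0.48 (SD, n = 4 and 13), was 0.03 (95% interval -0.97 to 1.03, limma, adjusted p = 0.98). As a ratio the interval ran from 0.51 to 2.04, so it did not leave out a 2-fold difference. The difference was -0.57 without T90, 0.77 without T57 and 0.94 with the slide as a fixed block. In this comparison 1.8% of all probes were called, meaning an adjusted p under 0.01 and at least a 2-fold difference, the limits the study set.

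In the predicted undifferentiated MCTs, KIT-C was 9.11 in T77, 10.99 in T114, 11.55 in T104, 12.20 in T80, 13.19 in T115, 13.60 in T132 and 14.78 in T49. In the 26 predicted differentiated MCTs it was 12.31 at the lowest, 13.35 at the median and 14.83 at the highest. The 4 lowest of the undifferentiated tumors lay below every differentiated tumor and the other 3 lay within their range. The means were 12.20 ± 1.87 and 13.40 ± 0.72 (SD, n = 7 and 26). The difference of -1.20 (95% interval -2.08 to -0.31) had an unadjusted p of 0.0097 in limma's fit over all probes and an adjusted p of 0.10, against 0.963% of all probes called and 19.2% at an unadjusted p under 0.05. KIT-K gave -1.57 with an adjusted p of 0.027 in limma's fit (n = 6 and 21), where 5.56% of all probes had an adjusted p under 0.05, and -1.15 with an adjusted p of 0.10 once its flagged spots were kept. KIT-E gave -1.30 with an adjusted p of 0.12. Without T77 the difference in KIT-C was -0.68, and with the slide as a fixed block it was -0.26 (adjusted p = 0.91).

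Over all 51 tumors the difference in KIT-C was -0.76 (95% interval -1.43 to -0.08, n = 50, limma, adjusted p = 0.13), while 2.35% of all probes were called. KIT-K and KIT-E gave -0.77 and -0.76. Within the 6 scan days that held both classes, the difference was below 0 on 4 days and above 0 on 2, from -2.48 to 1.93. Both extremes came from days with 1 undifferentiated tumor, T57 for the lowest and T90 for the highest. For KIT-C the class effect in the predicted samples was not shown to differ from that in the reference samples. Its interaction term of 1.22 (95% interval -0.17 to 2.62) had an adjusted p of 0.44 in limma's fit, while 0.00459% of all probes were called. With flagged spots kept the term was 1.33 (95% interval 0.02 to 2.65, limma, adjusted p = 0.36). That of KIT-K was 2.40 (95% interval 1.05 to 3.75, limma, adjusted p = 0.12), and 1.22 (95% interval -0.05 to 2.49) once its flagged spots were kept. KIT-K alone gave a class difference of 0.83 (95% interval 0.07 to 1.59) in the reference samples, where flagged spots left 3 undifferentiated tumors. It was 0.07 (95% interval -0.80 to 0.94) once the flagged spots were kept.

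**Figure D1:**
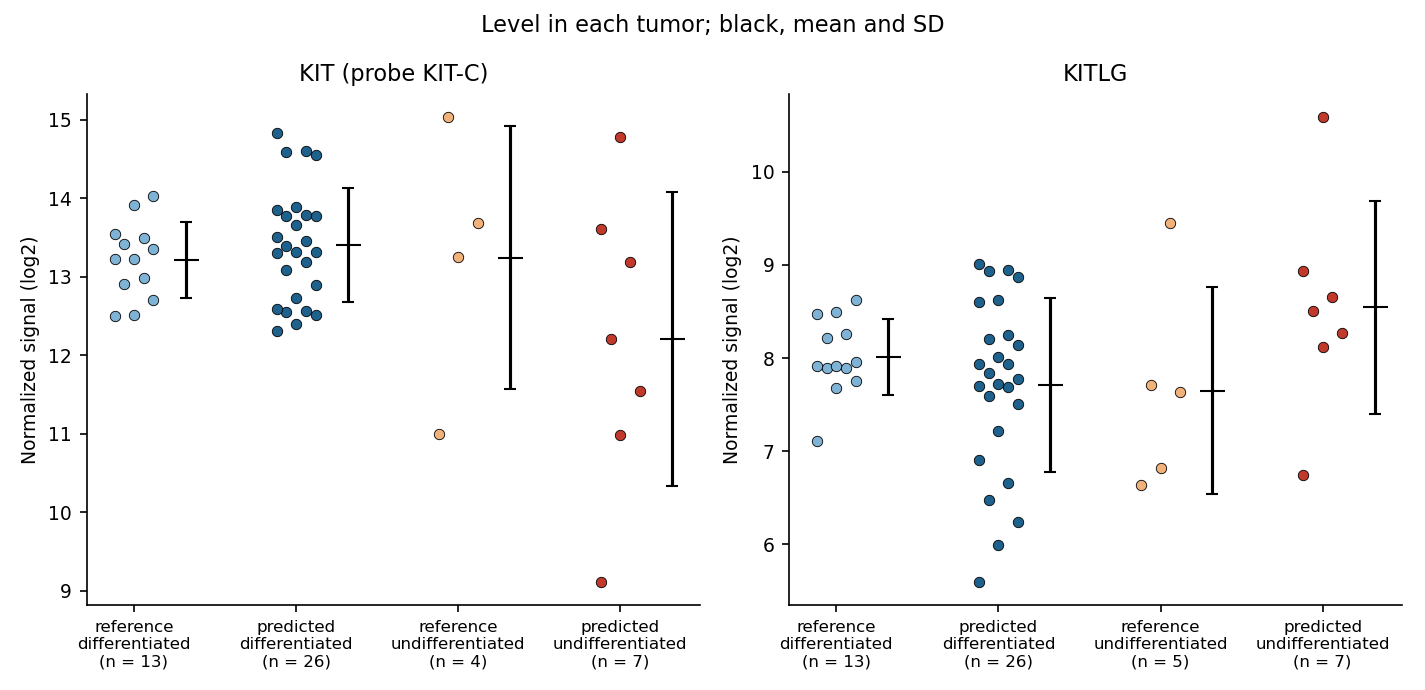
Level of KIT (probe KIT-C, left) and KITLG (right) in each tumor, as log2 normalized signal on the vertical axis, for the 4 groups on the horizontal axis, with the mean and SD of each group in black. Undifferentiated MCTs extend below and above the differentiated MCTs for KIT, from 9.11 to 15.04, and the KITLG levels of the groups overlap.

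KIT levels were more widely spread among undifferentiated than among differentiated MCTs. KIT-C had an SD of 1.79 among undifferentiated MCTs (n = 11) and of 0.65 among differentiated MCTs (n = 39), a ratio of 2.75. It spanned 60.7-fold in the former and 5.73-fold in the latter. The mean absolute deviation from the class median was 1.41 and 0.51 (2-sided permutation test, p = 0.00041, a test chosen after the values were seen). The spread of KIT-C was wider in both sets of samples, with SDs of 1.68 and 0.48 in the reference samples (n = 4 and 13, exact permutation p = 0.037) and 1.87 and 0.72 in the predicted samples (n = 7 and 26, exact permutation p = 0.0045). KIT-E gave SD ratios of 2.25 (n = 5 and 13, exact permutation p = 0.23) and 2.76 (n = 7 and 25, exact permutation p = 0.0025). Each deviation was taken from its own group's median, so the permutation p-values of the spread are approximate. This holds where all splits were counted too. Most transcripts also varied more among undifferentiated MCTs. The median ratio was 1.25 over the 22794 probes well above background on every array, and 0.847% of them had a higher ratio than KIT-C.

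The 5 lowest KIT-C levels of the series were all in undifferentiated MCTs, namely T77, T114, T57, T104 and T80, and the highest was in the undifferentiated T90. Of the 22794 probes, 2.51% had 5 or more undifferentiated tumors below every differentiated tumor. The count was 4 of 12 measured by KIT-E and 4 of 9 measured by KIT-K. The KIT-K spot of T57 was flagged and left out. When kept, it was 10.94, below the lowest differentiated tumor by KIT-K, T81 at 12.25. By KIT-E, T80 at 7.11 lay above the lowest differentiated tumor, T50 at 6.98. Relative to the median of the differentiated MCTs, T77 was 18.5-fold lower by KIT-C and 16.5-fold lower by KIT-K, and its KIT-E signal was not well above background, so no fold is given for it. T114 was 5.02-fold lower and T57 4.97-fold lower by KIT-C. T104 was 3.40-fold lower and T80 2.17-fold lower. At the other end, T90 was higher by 1.72 and T49 by 1.46 on the log2 scale, and by KIT-E both lay above every differentiated tumor.

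Mast cell markers were measured in the same tumors as a check on the labelled tissue. They were chymase (CMA1), the alpha and beta chains of the high-affinity IgE receptor (FCER1A and MS4A2), prostaglandin D synthase (HPGDS), the basophil and mast cell surface enzyme ENPP3 and the granule proteoglycan SRGN. All 6 were well above background on all 51 arrays, in the tumors lowest in KIT too. In T77, where KIT-C deviated from the differentiated median by -4.21, FCER1A deviated by -0.45, MS4A2 by -1.35, CMA1 by -1.92, HPGDS by -2.04, SRGN by -1.65 and ENPP3 by 0.16. In T104, where KIT-C deviated by -1.77, the 6 markers deviated by between -0.32 and 0.22. In T114 the 3 markers with an unflagged spot deviated by between -3.20 and -1.93, around the -2.33 of KIT-C. In T57, where KIT-C deviated by -2.31, the 6 markers deviated by between -2.20 (HPGDS) and 1.24 (SRGN). In T80, where KIT-C deviated by -1.11, those with an unflagged spot deviated by between -1.67 (FCER1A) and 0.45 (SRGN). By the mean of the mast cell markers, T114, T77, T80 and T57 ranked 1, 3, 4 and 6 from the lowest of the 51 tumors. T104 ranked 24, so low KIT went with a low marker mean in these tumors except T104, while single markers differed. The mean deviation of keratinocyte markers, centred on the 51 tumors, was 6.49 in T77, 6.64 in T104, 6.26 in T80, 4.01 in T114 and -5.10 in T57. It was above 0 in 26 of the 51 tumors and at least that of T114 in 18, among them T82 with 5.44, which was next to the highest in KIT-C. The part of other cell types in the low KIT levels was not tested, and in a piece of tissue fewer mast cells and less KIT transcript per mast cell cannot be told apart.

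**Figure D2:**
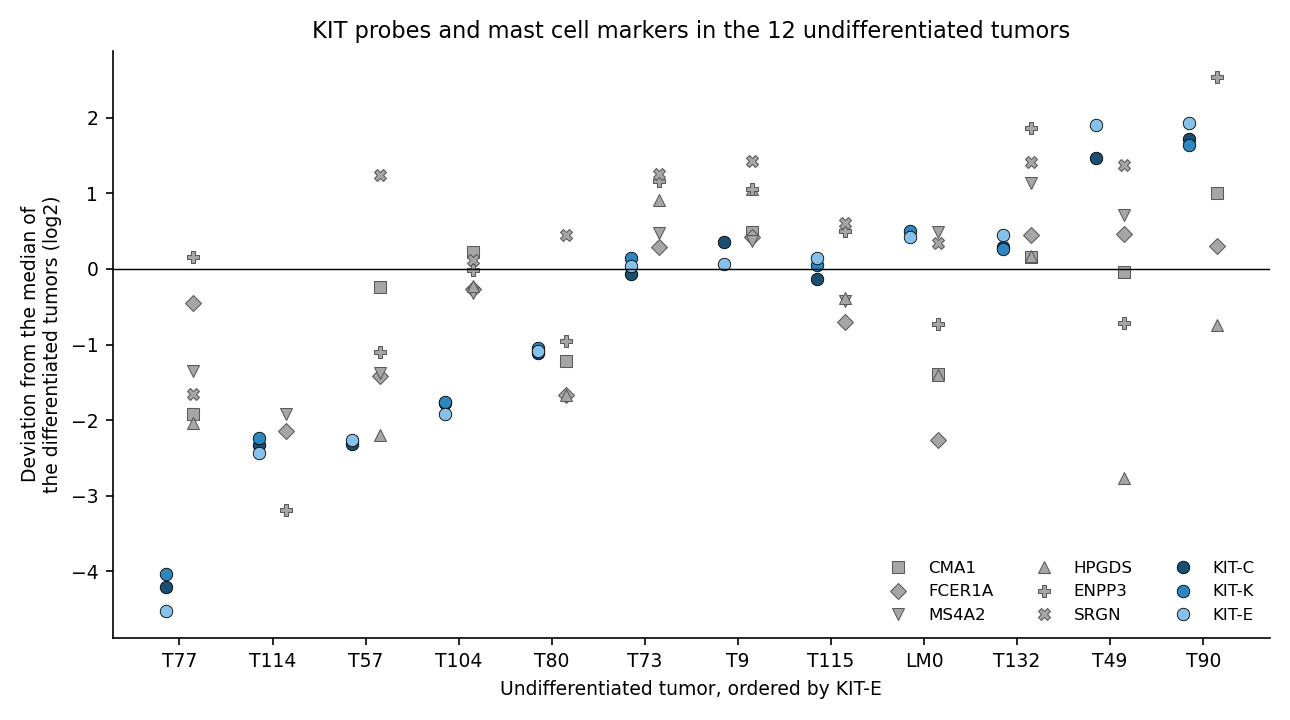
Deviation from the median of the differentiated MCTs (vertical axis, log2) of the 3 KIT probes (blue circles) and 6 mast cell markers (grey symbols) in each of the 12 undifferentiated MCTs, ordered from the lowest to the highest KIT-E (horizontal axis). The KIT probes of a tumor lie close together, and in T77, where KIT-E was not well above background, they lie below all 6 markers.

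KITLG was measured in every tumor and its mean did not differ between the classes by more than the spread within them. In the reference undifferentiated MCTs it was 6.64 in T9, 6.82 in T73, 7.64 in T90, 7.71 in LM0 and 9.45 in T57, against 7.11 at the lowest, 7.92 at the median and 8.63 at the highest of the 13 reference differentiated MCTs. T57, among the lowest in KIT, was the highest in KITLG of these 18 tumors. The means were 7.65 ± 1.11 and 8.01 ± 0.41 (SD, n = 5 and 13). Their difference was -0.36 (95% interval -1.06 to 0.34, limma, adjusted p = 0.56). Without T57 it was -0.81 (adjusted p = 0.041), and with the slide as a fixed block -0.90 (adjusted p = 0.26).

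In the predicted undifferentiated MCTs, KITLG was 6.74 in T49, 8.12 in T132, 8.27 in T80, 8.50 in T104, 8.65 in T77, 8.93 in T115 and 10.59 in T114. In the 26 predicted differentiated MCTs it was 5.60 at the lowest, 7.81 at the median and 9.01 at the highest. T114 lay above all of them and the other 6 within their range. The difference of 0.84 (95% interval 0.01 to 1.66, n = 7 and 26) had an adjusted p of 0.25 in limma's fit. It was 0.50 without T114, 0.16 with the slide as a fixed block and 0.44 with the scan day as a fixed block. Over all 51 tumors the difference was 0.36 (95% interval -0.22 to 0.95, limma, adjusted p = 0.49), and was 0.14 without T114, 0.15 with the slide and 0.24 with the scan day as a fixed block. The class difference in KITLG had opposite signs in the reference and the predicted samples. Its interaction term was -1.20 (95% interval -2.38 to -0.02, limma, adjusted p = 0.36). Within the 7 scan days that held both classes, KITLG was higher in the undifferentiated tumors on 4 days and lower on 3. The lowest of these differences, -1.30, came from a day with 1 tumor of each class. The SD of KITLG was 1.17 among undifferentiated and 0.80 among differentiated MCTs (n = 12 and 39, permutation test of the spread, p = 0.11), a ratio of 1.46. With normexp background correction the ratio was 1.77 (permutation p = 0.030). It was 2.75 in the reference samples (n = 5 and 13, exact permutation p = 0.069) and 1.23 in the predicted samples (n = 7 and 26, exact permutation p = 0.95).

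KIT and KITLG were negatively correlated across the tumors. Pearson's r between KIT-C and KITLG was -0.66 (n = 50, 2-sided permutation p = 1e-05, the smallest that 100000 resamples can give) and Spearman's rho was -0.70 (permutation p = 1e-05). Within the differentiated MCTs r was -0.69 (n = 39, permutation p = 2e-05) and rho -0.63. Within the undifferentiated MCTs r was -0.66 (n = 11, permutation p = 0.025) and rho -0.82. Without T77 and T114, the tumors farthest from the median KIT level, r was -0.67 (n = 48, permutation p = 1e-05). The reference and the unknown samples gave -0.65 (n = 17) and -0.67 (n = 33), so the relation did not rest on 1 set of samples.

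The extremes of both transcripts fell at opposite ends. The 3 lowest KITLG levels, 5.60 in T51, 5.99 in T12 and 6.25 in T6, were in differentiated MCTs whose KIT-C levels of 14.58, 14.55 and 14.60 were among the 6 highest. The 2 highest KITLG levels, 10.59 in T114 and 9.45 in T57, were in tumors whose KIT-C was the lowest after that of T77. Among 9163 other genes with a probe well above background on at least 26 arrays, 7 had a lower r with KIT-C than KITLG did. In the reverse ranking, 30 genes had a lower r with KITLG than KIT-C did. KIT-K and KIT-E gave r of -0.61 and -0.63 with KITLG. Within each of the 6 scan days with at least 6 measured tumors r was below 0, from -0.88 to -0.36, and after each slide's mean was removed it was -0.67.

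**Figure D3:**
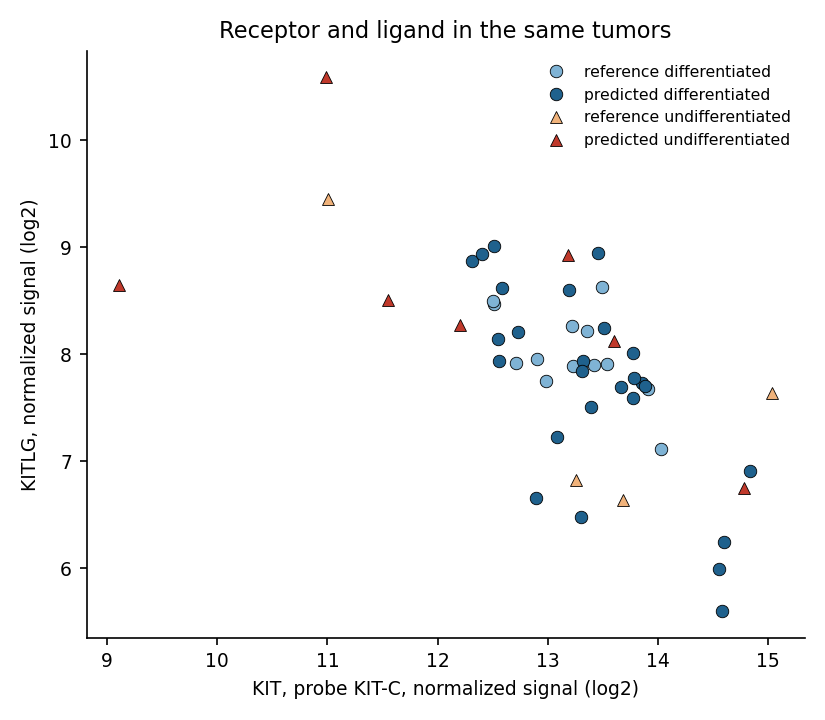
KITLG (vertical axis) against KIT (probe KIT-C, horizontal axis), both as log2 normalized signal, in 50 tumors, with differentiated MCTs as circles and undifferentiated MCTs as triangles. KITLG is lower where KIT is higher (r = -0.66), in both classes.

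Grade, breed, sex and age gave no called difference in either gene. Among the reference differentiated MCTs, KIT-C was 12.51 at the lowest, 13.10 at the median and 13.54 at the highest in the 6 Patnaik G1 tumors, and 12.50, 13.42 and 14.02 in the 7 Patnaik G2 tumors. The grades overlapped, with 2 G2 tumors above and 1 below every G1 tumor. The difference was 0.30 (95% interval -0.25 to 0.85, limma, adjusted p = 0.66), and that of KITLG was -0.02 (95% interval -0.51 to 0.47, limma, adjusted p = 0.98), where 0.0138% of all probes were called. These intervals leave out a 2-fold difference between G1 and G2, whereas that of KIT-E, from -0.32 to 1.19, does not.

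In Boxers, KIT-C was 10.99 at the lowest, 13.19 at the median and 14.55 at the highest of 9 tumors. In Labrador Retrievers it was 12.20, 13.32 and 13.85 over 9 tumors, and in Crossbred dogs 11.00, 13.26 and 15.04 over 14 tumors. The breeds overlapped over nearly the whole range of Labrador Retrievers. With the class in the model, Boxers minus Labrador Retrievers was -0.24 (95% interval -1.14 to 0.66) for KIT-C and 0.49 (95% interval -0.44 to 1.43) for KITLG. Boxers minus Crossbred dogs was -0.18 (95% interval -0.99 to 0.63) and 0.31 (95% interval -0.54 to 1.15). Labrador Retrievers minus Crossbred dogs was 0.06 (95% interval -0.75 to 0.87) and -0.19 (95% interval -1.03 to 0.66). None of the 6 differences passed the test in limma's fit, in which 0.0527%, 0.0115% and 0.0115% of all probes were called.

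Tumors of male dogs had 0.55 more KIT-C than those of female dogs on the log2 scale with the class in the model (95% interval -0.05 to 1.15, 18 male and 30 female, limma, adjusted p = 0.89), and KITLG differed by -0.27 (95% interval -0.81 to 0.28), where 0.0275% of all probes were called. In the differentiated MCTs alone the KIT-C difference between the sexes was 0.10. The slope per year of age was -0.03 for KIT-C (95% interval -0.14 to 0.09, n = 48) and -0.02 for KITLG (95% interval -0.12 to 0.08, n = 49), and no probe was called for age, with 1006 probes, or 2.31%, at an unadjusted p under 0.05.

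**Figure D4:**
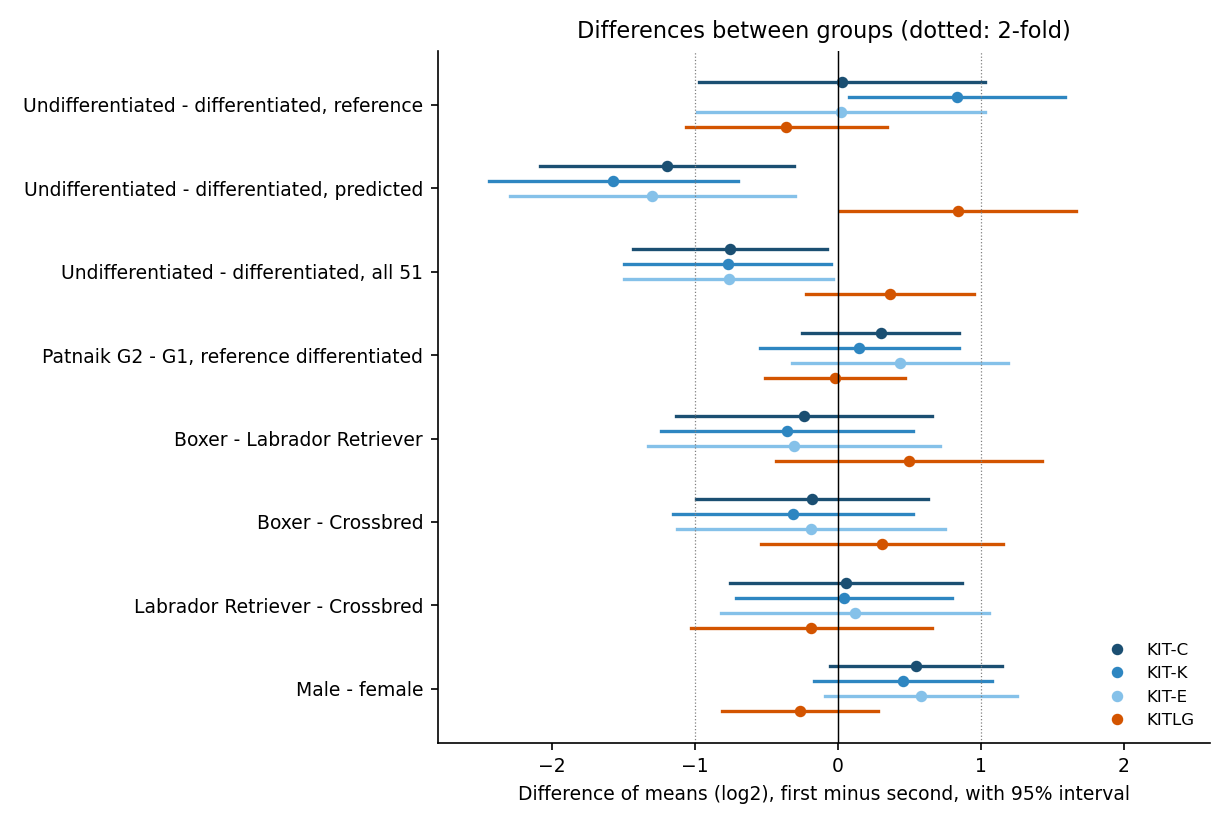
Difference of group means (horizontal axis, log2, first group minus second, points) with its 95% interval (bars) for the 3 KIT probes and KITLG in each comparison (vertical axis), with dotted lines at 2-fold. The intervals of all 3 KIT probes lie below 0 in the class comparisons of the predicted samples and of the 51 tumors, and those of KIT-C and KIT-E span 0 in the others. The interval of KIT-K lies above 0 in the class comparison of the reference samples, and that of KITLG above 0 in the class comparison of the predicted samples.

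The levels of both genes were correlated with the transcript levels of markers of some cell types. For each of 10 lists of markers, the mean deviation of the measured markers was correlated with KIT-C and KITLG over the 51 tumors and within the 39 differentiated MCTs, which made 40 relations, of which 15 had an adjusted p under 0.05 for Pearson's r. Mast cell markers, 6 of 11 listed, were positively correlated with KIT-C (r = 0.66, rho = 0.60, permutation p = 1e-05 and 2e-05, adjusted p = 8e-05 for r) and negatively with KITLG (r = -0.65, rho = -0.60, adjusted p = 8e-05 for r). Within the differentiated MCTs r was 0.58 for KIT-C and -0.57 for KITLG. Without the 2 tumors farthest from the median of the mast cell markers, r was 0.62 and -0.54 over the 51 tumors.

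Endothelial markers, all 6 listed, ran the other way, with r = 0.66 for KITLG (rho = 0.64, permutation p = 1e-05, adjusted p = 8e-05 for r) and -0.54 for KIT-C (rho = -0.54, permutation adjusted p = 0.0005 for r). The members of this list were not alike. With KITLG, r was 0.74 for EMCN, 0.71 for CDH5, 0.63 for PECAM1 and 0.49 for VWF, but 0.11 for TEK and -0.30 for KDR. CDH5 and TEK were well above background on 7 and 4 arrays. Smooth muscle and pericyte markers, 4 of 5 listed, had r = 0.57 with KITLG (rho = 0.62, adjusted p = 0.0002 for r) and -0.45 with KIT-C (rho = -0.45, adjusted p = 0.0038 for r). In that list r with KITLG was 0.59 for TAGLN and 0.53 for MYH11, but 0.17 for RGS5 and -0.01 for CSPG4. Keratinocyte markers, 5 of 6 listed, had r = 0.37 with KITLG (rho = 0.50, adjusted p = 0.023 for r) and -0.29 with KIT-C (rho = -0.37, adjusted p = 0.098 for r and 0.022 for rho). Among them KRT1, KRT10 and DSG1 were well above background on 31, 30 and 29 arrays.

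Fibroblast, T cell, macrophage, eosinophil and proliferation markers passed the adjusted threshold with neither gene over the 51 tumors, with r between -0.21 and 0.27. Melanocyte markers reached r = 0.28 with KITLG over the 51 tumors (rho = 0.34, adjusted p = 0.10 for r and 0.037 for rho) and 0.39 within the differentiated MCTs (n = 39, permutation adjusted p = 0.034). Of the melanocyte markers, DCT, TYR, TYRP1 and MLANA were well above background on 18, 10, 20 and 28 arrays. With KITLG over the 51 tumors, TYR had r = -0.21 and the other melanocyte markers r between 0.23 and 0.38. The eosinophil list was measured by 1 of its 4 genes, CCR3. Proliferation is what the mitotic index and the cell cycle transcripts that set the classes reflect, so its markers are given by class as a description only. Their mean deviation ran from 1.03 to 2.85 in undifferentiated and from -2.27 to 0.71 in differentiated MCTs, and they had r = -0.21 with KIT-C and 0.16 with KITLG. The part of the tissue makeup in the relation between KIT and KITLG was not tested.

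**Figure D5:**
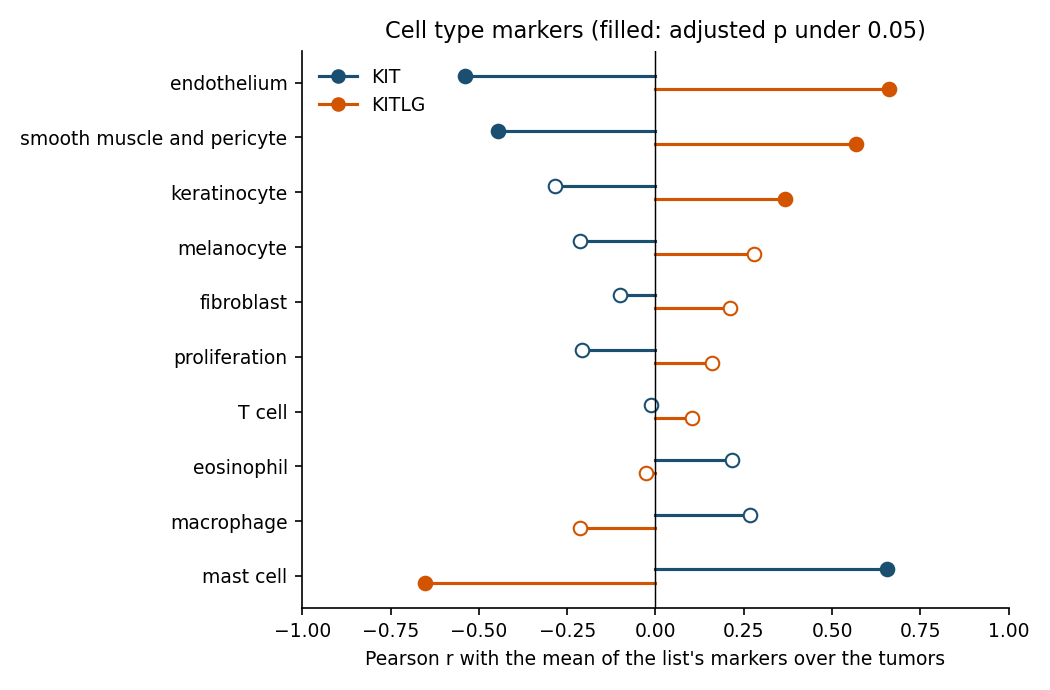
Pearson's r over the tumors (horizontal axis) of KIT (probe KIT-C, blue) and KITLG (orange) with the mean of the markers of each cell type list (vertical axis), filled where the adjusted permutation p is under 0.05. The genes lie on opposite sides of 0 for every list, and both are filled only for the mast cell, endothelium, and smooth muscle and pericyte lists.

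The genes whose levels followed KIT most closely over the tumors were SLC45A3, a solute carrier (r = 0.78, n = 50), HPGD, which inactivates prostaglandins (r = 0.76, n = 50), SLC29A4, a monoamine transporter (r = 0.74, n = 48), DBI, an acyl-CoA binding protein (r = 0.74, n = 41), and GRAP2, an adaptor protein of blood cells (r = 0.72, n = 49), among 9163 genes. With KITLG these 5 had r between -0.75 and -0.51. Their r with KIT-C was between 0.54 and 0.72 within the differentiated MCTs and between 0.81 and 0.93 within the undifferentiated MCTs, where KIT was more widely spread. The closest to KITLG were CD93, a receptor of endothelial and myeloid cells (r = 0.77, n = 49), GNG11, a G protein subunit (r = 0.77, n = 49), MCAM, an adhesion molecule of endothelium and pericytes (r = 0.77, n = 48), LMCD1, a LIM domain protein (r = 0.77, n = 50), and ZMAT4, a zinc finger protein (r = 0.76, n = 51). With KIT-C these 5 had r between -0.60 and -0.42. These correlations describe libraries that share tissue makeup and normalization, and carry no test.

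Of 20 measured KIT signalling genes, none was called in the reference samples, the predicted samples or the 51 tumors together by limma at an adjusted p under 0.01 and 2-fold, where 1.8%, 0.963% and 2.35% of all probes were called. At such shares a count of 0 among so few genes is not particular to them. Their median difference over 51 tumors was -0.03, against -0.01 for all probes. The members with an adjusted p under 0.05 in any of the 3 comparisons were the transcription factor STAT5B, at 0.71 in the reference samples (adjusted p = 0.015), and, in the predicted samples, the PI3 kinase subunit PIK3R1 at -0.65 (adjusted p = 0.023) and the adaptor SHC1 at 0.40 (adjusted p = 0.041). All 3 were under 2-fold, and 7.69%, 5.56% and 14.2% of all probes had an adjusted p under 0.05 in the reference samples, the predicted samples and the 51 tumors. The SRC family kinase LYN differed by 0.31 over 51 tumors (adjusted p = 0.16) and the kinase BTK by -0.50 (adjusted p = 0.19). The 8 measured brakes on KIT were not called either, with a median of -0.13. The phosphatase PTPN6 differed by -0.59 (adjusted p = 0.069) and the ubiquitin ligase CBLB by -0.60 (adjusted p = 0.058). Of the proteases linked to shedding, ADAM10 differed by 0.26 (adjusted p = 0.023) and MMP9 by 1.26 (adjusted p = 0.18), and neither was called.

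Among the receptors related to KIT and their ligands, CSF1R and its ligand IL34 were called lower in undifferentiated MCTs, in the reference samples alone or in both sets together. CSF1R, the receptor for macrophage colony stimulating factor, fell by 1.92 in the reference samples (SE 0.39, n = 5 and 13, limma, adjusted p = 0.0065). It differed by -0.24 in the predicted samples (adjusted p = 0.75) and by -0.92 over 51 tumors (adjusted p = 0.016). IL34 fell by 1.84 in the reference samples (SE 0.28, limma, adjusted p = 0.00074) and by 1.26 over 51 tumors (SE 0.23, limma, adjusted p = 6.96e-05), and differed by -0.90 in the predicted samples (adjusted p = 0.083). These were 2 of 9 measured genes in the reference samples, none in the predicted samples and 1 over 51 tumors, where 0.858%, 0.243% and 1.05% of all probes were called lower. Neither followed KIT-C over the tumors, with r of 0.13 for CSF1R and -0.12 for IL34.

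Of 6 measured mast cell transcription factors none was called at both limits, against the 1.8%, 0.963% and 2.35% of all probes called. MITF, the factor that drives mast cell genes including KIT, differed by -0.87 over 51 tumors with an adjusted p of 0.0065, short of the 2-fold limit, and by -0.87 and -0.92 in the reference and the predicted samples. It had r = 0.72 with KIT-C and -0.63 with KITLG. ZEB2 had r = 0.71 and -0.62, and GATA1 r = 0.60 and -0.48. LMO4, a LIM domain factor, differed by -0.51 in the predicted samples (adjusted p = 0.013), again under 2-fold. STAT5A, STAT5B and LMO4 had r between 0.01 and 0.25 with KIT-C.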

How the data were processed

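The samples were 51 canine MCTs, 1 single-colour Agilent canine array each, on 15 slides scanned on 9 days. Class and grade of the reference samples were joined to the labelled case names from the study's table of reference samples. LM0 was matched to it as the remaining case. The class of the unknown samples was the study's class prediction, joined by case name. The deposited scanner files hold each spot's intensity; the authors extracted and background-subtracted it with Agilent Feature Extraction. The deposited table holds the same arrays' intensity after quantile normalization by the authors, with column medians from 118 to 177. It is on a linear scale, not centred, and served as an alternative. Between 59.4% and 74.8% of spots were well above background, and the number of arrays limits the precision.

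Processed intensities of 43803 non-control spots were log2-transformed and quantile-normalized over the 51 arrays. Between 718 and 3291 flagged spots per array were left out, and replicate spots were averaged per probe, giving 43603 probes. Differences were tested with limma 3.58.1 (R 4.3.3), which stood in for SAM, with Benjamini-Hochberg adjustment over all probes, and called at an adjusted p under 0.01 and 2-fold. Breed, sex and age models included the class. Permutation tests were run with NumPy 2.4.6, exactly where a group held fewer than 10 tumors and otherwise with 100000 resamples. SciPy 1.17.1 gave the ranks and the adjustment of the marker correlations. Class fits and permutation tests were tested on simulated data. Gene symbols came from the array files, updated through RefSeq accessions, and 17557 probes had one. The brightest probe stood for a gene, and the 5 genes most correlated with each member were named, as were called genes of fixed lists; other list members named were picked with their values known. PMEL and CDK1 were found under older names. Members and lists were chosen with earlier results of these data known. Alternatives were another scaling, normexp (offset 50), the authors' table, flagged spots kept, dim probes left out, slide and scan day as blocks, sex and age, other thresholds and leaving out tumors. Each tumor is 1 dog, so the spread includes that between dogs.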

Additional observations from a re-analysis of the deposited data

Results flagged for a closer look

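KIT-K in Boxers had a value far from the others. The lowest of the 6 Boxer tumors with an unflagged KIT-K spot, T114, was at 10.99, and the next at 12.82. The gap was 0.643 of the whole range, above the 95% critical value of Dixon's test of 0.625 for 6 samples. It was 1 of 23 groups examined, and chance flags about 1 in 20. KIT-C, measured in all 9 Boxer tumors, gave no such outlier. With the flagged KIT-K spots kept, the next lowest Boxer tumor was T47 at 12.43, so the gap was narrower. T114 is an undifferentiated tumor with the highest KITLG and the lowest mast cell marker mean of the series.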

How the results depend on the processing

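KIT-C and KITLG, the probes that the alternatives were run on, did not pass the call limits in any class, grade, breed, sex or age comparison under any of them. At an adjusted p under 0.05 with no limit on the fold, KIT-K passed in the predicted samples (-1.57, adjusted p = 0.027). By the permutation test of the single probe, with an unadjusted p under 0.05, KIT-C was lower in undifferentiated MCTs in the predicted samples (-1.20, exact permutation p = 0.012) and over 51 tumors (-0.76, permutation p = 0.032). Leaving out 1 tumor at a time, of either class in the reference samples and of the undifferentiated class otherwise, gave KIT-C differences from -0.57 (without T90) to 0.77 (without T57) in the reference samples, from -1.63 (without T49, adjusted p = 0.019) to -0.68 (without T77) in the predicted samples and from -1.002 (without T90, adjusted p = 0.032) to -0.41 (without T77) over 51 tumors. For KITLG the ranges were -0.81 to -0.11, 0.50 to 1.14 and 0.14 to 0.50. With the slide as a fixed block KIT-C differed by 0.94 in the reference samples and by -0.26 in the predicted samples, and KITLG by -0.90 and 0.16; the cause was not tested. The correlation of KIT-C with KITLG was between -0.69 and -0.61 under 13 alternatives. The SD ratio of KIT-C ran from 2.22 (without T77) to 2.89 when 1 undifferentiated tumor was left out. In the reference samples alone it was 1.59 by KIT-K (n = 3 and 10, exact permutation p = 0.64) and 2.25 by KIT-E (exact permutation p = 0.23), with fewer tumors than over the series; the cause was not tested. The alternatives for the spread and for the slide and scan day in the correlation were chosen after seeing the data. Of the 15 slides 10 held both classes, and all 12 undifferentiated tumors shared a slide with a differentiated tumor. No paired analysis was possible because each tumor came from a different dog and replicate numbers only name samples.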
